A study of Populus alba x Populus glandulosa with 18 samples.

Results

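Roots of 84K poplar (Populus alba x Populus glandulosa, a hybrid tree) were compared between a line that overexpresses bHLH58 and a line in which the same gene is knocked out. The comparison holds 6 of the 18 RNA-seq libraries of the series. They are 3 of bHLH58-OE (line 20) and 3 of bhlh58-KO (line 6), chosen by their labels, and no wild-type library enters the contrast. The other 12 libraries, 3 each from wild type (WT), the double knockout bhlh58/151-KO (line 32), bHLH151-OE (line 17) and bhlh151-KO (line 40), served to estimate the spread between libraries and to place the 2 lines. Every transgenic genotype is 1 line in the 84K background, so an effect of the genotype and a peculiarity of the line cannot be told apart. The labels give neither the promoter of the overexpression construct, nor how the knockout was made, nor the age of the plants. Whether the replicates are different plants is not stated, so p-values refer only to the spread among these libraries, and that spread may be technical.

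The name bHLH stands for basic helix-loop-helix, a family of transcription factors that bind DNA as dimers through their basic region and recognise short E-box motifs. In Arabidopsis, members of the family act in root hair growth, in iron uptake by the root and in jasmonate signalling. A dimer partner can change which genes a member binds, and some members lower the transcription of their targets while others raise it. The stated aim of the series was to find genes upstream and downstream in a root phenotype. A contrast of overexpression with loss of 1 factor lists the transcripts that differ between such lines. Whether they follow its dose was not tested.

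The deposited table gives FPKM, a count of sequenced fragments divided by the length of the transcript and by how many fragments of the library were mapped. It pairs its gene IDs with no names, so transcripts appear by ID. The ID of bHLH58 is not identified in the sources used here, and the overexpression and knockout labels were therefore not checked on the targeted gene. Marker genes of root and of other tissues matched 0 IDs, so the labelled tissue was not checked either. In bulk root RNA, fewer cells of a type and less RNA per cell cannot be told apart. Library depth is unknown. The 6 libraries were alike in how many IDs reached 1 FPKM (38252 to 38499) and in total FPKM (522253 to 528194). A transcript was tested if 3 or more of the 18 libraries held it at 1 FPKM or more, which 40951 of 71159 IDs did. Of these, 38946 reached that level in 3 of the 6 libraries compared here, and 80 of the other 2005 were called. Just inside the limit, 640 IDs had at least 1 FPKM in exactly 3 libraries, with a median highest value of 1.39 FPKM. Just outside it, 821 IDs did so in exactly 2 libraries, with a median highest value of 1.27 FPKM.

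The 2 lines separated clearly. Pearson correlations of log2(FPKM + 1) over the tested IDs were 0.984 to 0.985 within bHLH58-OE and 0.984 to 0.985 within bhlh58-KO, against 0.970 to 0.975 between them. bHLH58-OE libraries correlated with WT libraries at 0.975 to 0.978, and bhlh58-KO libraries at 0.960 to 0.966. In a principal component analysis of the 6 libraries, the first component held 45.4% of the variance. It placed the bHLH58-OE libraries at 22.3, 27.5 and 30.6 and the bhlh58-KO libraries at -26.0, -26.0 and -28.4. The second component held 15% and ordered both lines alike by replicate number. On it the bHLH58-OE libraries were at 20.4, -18.5 and 0.112 and the bhlh58-KO libraries at 16.9, -19.8 and 0.893. The spread within the 2 groups was alike, with a median SD of 0.12 in bHLH58-OE and 0.118 in bhlh58-KO on the log2 scale (n = 3 each).

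Between overexpression and knockout, 3804 transcripts differed at an adjusted p under 0.05 (limma on log2(FPKM + 1), Benjamini-Hochberg over all tested IDs), which is 9.29% of those tested. Of these, 1789 (4.37%) were higher and 2015 (4.92%) lower in bHLH58-OE than in bhlh58-KO. Which direction held more calls depended on the setting, with 2114 higher and 1925 lower after quantile normalization and 1358 higher and 1289 lower without bHLH58-OE replicate 2. Most differences were modest. The median log2 fold change was 0.475 among the higher transcripts and -0.454 among the lower ones. Differences of 2-fold or more were commoner on the lower side, with 65 transcripts higher (0.159%) and 164 lower (0.4%). These 2 counts depended on the scale and were 202 and 366 with a pseudocount of 0.1, and 119 and 254 after rescaling to TPM. At 4-fold or more, 6 were higher and 28 lower. Both extremes lay near each other in size, at 2.97 and -3.22. Of the called transcripts, 3755 had all libraries of one line outside the range of the other, as had 11441 of all tested IDs (27.9%), and 49 called transcripts overlapped. Leaving out replicate 3 of bhlh58-KO brought the total of 3804 to 2498, and leaving out replicate 3 of bHLH58-OE to 2371. The number higher fell to 1118 without bHLH58-OE replicate 3. The number lower fell to 1326 and 1271 without bhlh58-KO replicate 1 or 3, and to 1289 and 1253 without bHLH58-OE replicate 2 or 3.

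**Figure D1:**
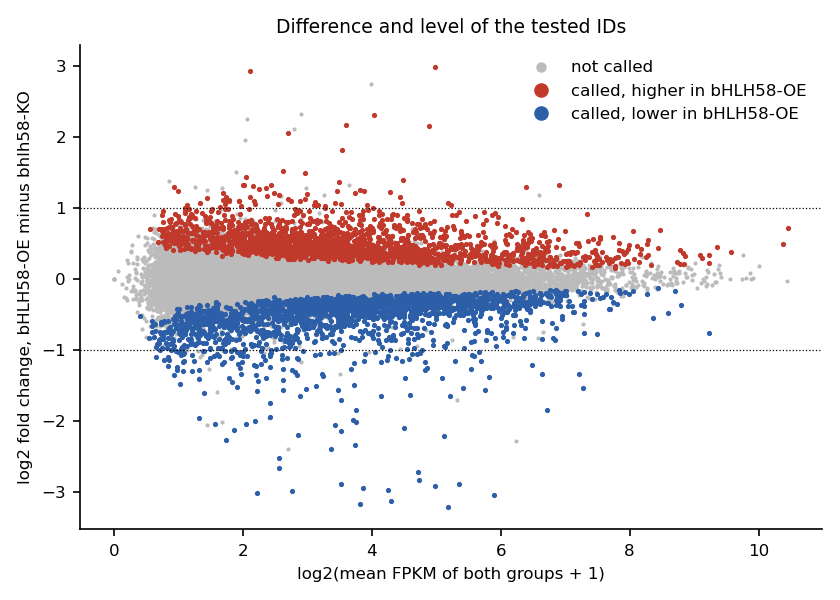
Each point is 1 of the 40951 tested IDs, with the log2 of the mean FPKM of both lines plus 1 on the horizontal axis and the log2 fold change of bHLH58-OE over bhlh58-KO on the vertical axis. Red and blue points were called higher (1789) and lower (2015), dotted lines mark 2-fold, and the 164 lower transcripts past that line reach further down and lie denser than the 65 higher ones.

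Abundant transcripts were called more often than scarce ones. Among the 724 IDs with a mean over 100 FPKM, 125 were higher and 88 lower, together 29.4%. Among the 4558 IDs between 20 and 100 FPKM, 412 were higher and 607 lower (22.4%). The share was 10.2% between 5 and 20 FPKM, 5.17% between 1 and 5 FPKM and 5.51% under 1 FPKM. The median size of the called differences ran the other way, at 0.308 on the log2 scale over 100 FPKM and 0.67 under 1 FPKM. These medians cover called IDs only. A call needs a difference that is large beside its error, so the threshold shapes them. At 2-fold or more, 6 of the 724 most abundant IDs were called, 1 higher and 5 lower, a share of 0.829%. That share was 0.834% between 20 and 100 FPKM, 0.519% between 5 and 20, 0.534% between 1 and 5 and 0.416% under 1 FPKM. Calls of 2-fold or more were therefore not rarer among abundant transcripts.

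The called transcripts made up a moderate part of the root transcriptome. The higher ones summed to 61758, 66969 and 66202 FPKM in the bHLH58-OE libraries, against 48337, 48812 and 47682 FPKM in those of bhlh58-KO. In WT the same transcripts summed to 66827, 66506 and 68733 FPKM, at or near the level of the overexpression line. The lower transcripts summed to 41778, 40366 and 40119 FPKM in bHLH58-OE, against 55665, 55578 and 56981 FPKM in bhlh58-KO. WT stood beside the overexpression line again, at 40357, 40145 and 40200 FPKM. As the sums are over transcripts chosen by this contrast, the gap between the 2 lines describes the choice, and the WT level is no term of that contrast.

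PAxG13Ag0088600 had the largest rise in bHLH58-OE. It stood at 51.3, 63.7 and 50.4 FPKM in bHLH58-OE, against 5.02, 7.31 and 6.19 FPKM in bhlh58-KO. Every overexpression library lay far above every knockout library, with a log2 fold change of 2.97 (SE 0.15, limma adjusted p = 6.31e-10). Across the other groups it was at 90.5 ± 14.5 FPKM in WT, 20.3 ± 4.99 in bhlh58/151-KO, 38.0 ± 2.91 in bHLH151-OE and 26.0 ± 2.86 in bhlh151-KO (SD, n = 3 each). The order of the means was thus WT, bHLH58-OE, bHLH151-OE, bhlh151-KO, bhlh58/151-KO and bhlh58-KO. In that order, the ranges of bhlh151-KO and bhlh58/151-KO overlapped and the others did not.

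PAxG13Gg0089100 behaved much like it. Its values were 23.6, 31.0 and 23.9 FPKM in bHLH58-OE, against 4.35, 4.01 and 5.03 FPKM in bhlh58-KO. The groups did not overlap (limma: change of 2.31 on the log2 scale, SE 0.18, adjusted p = 2.43e-07). WT was again above both lines, at 35.8, 33.1 and 36.3 FPKM, though its difference from bHLH58-OE was not called (limma adjusted p = 0.216). The 2 IDs share the number 13 and differ in the letter A or G, and the relation of such IDs is not given in the sources used here. Reads of near-identical copies could be divided between them, so each single value is uncertain to that extent.

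PAxG06Gg0057900 showed the largest fall in bHLH58-OE. It was at 8.77, 2.23 and 8.27 FPKM in bHLH58-OE, against 49.0, 47.3 and 96.6 FPKM in bhlh58-KO. Both lines were uneven. In FPKM, knockout replicate 3 was about as far from the other bhlh58-KO libraries as they were from the overexpression line. On the log2 scale that distance was smaller than the gap between the lines, and the bHLH58-OE library at 2.23 FPKM stood further from its group. The log2 fold change was -3.22 (SE 0.44, limma adjusted p = 0.000552). The call was lost when only these 6 libraries entered the fit (limma adjusted p = 0.05001). WT libraries were at 7.91, 2.82 and 4.60 FPKM, in the range of the overexpression line. bhlh58/151-KO averaged 70.6 ± 21.9 FPKM, bhlh151-KO 70.0 ± 10.2 and bHLH151-OE 25.9 ± 5.43 (SD, n = 3 each). The transcript was therefore low in bHLH58-OE and WT and high in each of the 3 knockout lines, with bHLH151-OE between.

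PAxG01Ag0006200 had another pattern. It was at 2.01, 2.06 and 1.44 FPKM in bHLH58-OE, against 23.4, 23.9 and 25.8 FPKM in bhlh58-KO, a wide gap with little spread (limma: change of -3.17 on the log2 scale, SE 0.14, adjusted p = 4.37e-11). WT lay between the lines, at 11.7, 14.8 and 12.1 FPKM. The overexpression line was below WT (-2.29, SE 0.14, limma adjusted p = 5.87e-09) and the knockout above it (0.88, SE 0.14, limma adjusted p = 0.000175). The double knockout did not share the rise. It stood at 10.8, 8.71 and 7.33 FPKM and was below WT (-0.49, SE 0.14, limma adjusted p = 0.0144). bHLH151-OE and bhlh151-KO, at 4.56 ± 1.09 and 5.31 ± 0.29 FPKM (SD, n = 3 each), were lower still and did not differ at the threshold from each other (limma adjusted p = 0.346).

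**Figure D2:**
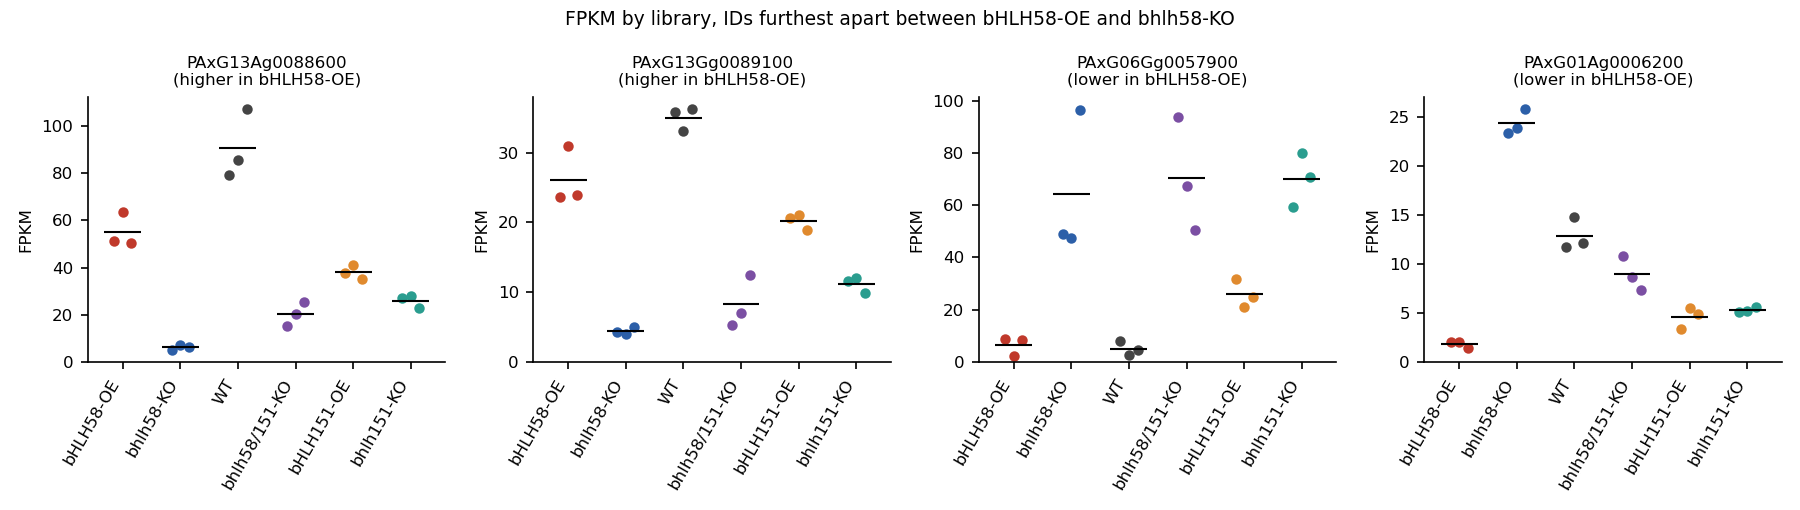
FPKM of the 4 named IDs in every library of the 6 groups (vertical axes, linear from 0), with points for libraries and a bar for the mean of 3. WT lies above both bHLH58 lines for the 2 IDs with number 13, beside bHLH58-OE for PAxG06Gg0057900 and between the lines for PAxG01Ag0006200.

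The place of WT was examined for all called transcripts. The WT level is no term of the contrast that chose them, although WT libraries entered the filter and the estimate of the spread. For each ID the scale was set at 0 for the bHLH58-OE mean and at 1 for the bhlh58-KO mean of log2(FPKM + 1). Among the 1789 transcripts higher in bHLH58-OE, WT lay beyond the overexpression line in 1021 (57.1%), between the lines in 39.5% and beyond the knockout in 61 (3.41%). Among the 2015 lower ones, WT lay beyond the overexpression line in 1028 (51.0%), between the lines in 44.5% and beyond the knockout in 91 (4.52%). The median place of WT was -0.079 for the higher and -0.013 for the lower transcripts. For both directions, the typical WT level was thus that of the overexpression line.

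Transcripts with larger differences were placed otherwise on the lower side. Of the 65 transcripts at least 2-fold higher in bHLH58-OE, WT lay beyond the overexpression line in 42, between the lines in 30.8% and beyond the knockout in 3. Of the 164 at least 2-fold lower, WT lay beyond the overexpression line in 47 only, between the lines in 66.5% and beyond the knockout in 8. In 48 of these 164 it lay between the lines and nearer to the knockout, as it did for PAxG01Ag0006200.

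**Figure D3:**
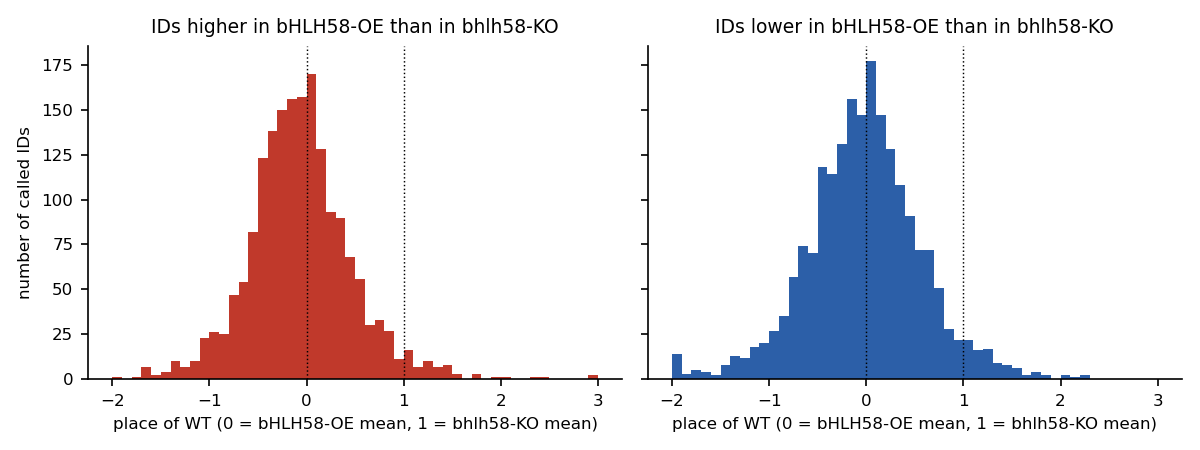
Place of WT for each called ID, on a scale where 0 is the bHLH58-OE mean and 1 the bhlh58-KO mean (horizontal axis), with the number of IDs on the vertical axis and IDs beyond -2 or 3 in the end bars. Both distributions peak near 0, at the overexpression line, and few IDs lie beyond 1.

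The comparisons of each line with WT share 3 libraries with the contrast of the lines, so their values are given side by side. In bHLH58-OE, 3.3% of all tested transcripts were called above WT and 2.07% below it. In bhlh58-KO, 12.9% were above WT and 9.51% below. Of the 1789 transcripts higher in bHLH58-OE than in bhlh58-KO, 95 were called above WT and 150 below WT in bHLH58-OE. In bhlh58-KO, 8 of them were above WT and 1420 below. Of the 2015 lower ones, 162 were above WT and 195 below WT in bHLH58-OE. In bhlh58-KO, 1539 of them were above WT and 11 below. Most transcripts that separate the lines thus differed from WT in the knockout line, and a minority in the overexpression line.

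Few of the 40951 tested transcripts were called on opposite sides of WT. Both calls use the same WT libraries, so an error in WT shifts them alike and makes opposite calls less likely. In 46 the overexpression line was called below WT and the knockout above it, and 34 of these differed at least 2-fold between the lines. The reverse, overexpression above WT and knockout below it, was found for 6 transcripts, 3 of them at least 2-fold apart. For the 46, the position on the scale from bHLH58-OE (0) to bhlh58-KO (1) was 0.641, 0.639 and 0.524 in the double-knockout libraries. WT libraries were at 0.655, 0.704 and 0.615, and the choice of the 46 itself puts WT between the lines. The double knockout, which lacks bHLH58 as well, was called above WT for 11 of the 46, below WT for 11 and not called for 24. Over all tested transcripts, 12.6% were called above WT there and 16.3% below. In bHLH151-OE against bhlh151-KO, 0 of the 46 were called higher and 25 lower, beside 11.4% and 9.39% of all tested transcripts. bHLH151-OE was called above WT for 6 of the 46 and below it for 28, beside 11.5% and 20.4% of all. In bhlh151-KO, 15 were called above WT and 18 below, beside 17.6% and 30.8% of all.

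Libraries of the other groups were placed on the same scale over all 3804 called transcripts together. WT libraries were at 0.120, 0.107 and 0.062, close to the overexpression line. Their mean of 0.096 was 0.184 with a pseudocount of 0.1 and 0.045 among IDs with a mean of at least 5 FPKM. It was 0.151 without bHLH58-OE replicate 1. Those of bHLH151-OE were at 0.564, 0.479 and 0.457, midway. Those of bhlh58/151-KO were at 0.800, 0.730 and 0.649, and those of bhlh151-KO at 0.934, 1.068 and 0.962, level with bhlh58-KO. The 12 libraries of these 4 groups did not define the scale, while the ends are fixed by the 6 libraries themselves. The 4 groups did not overlap.

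Over the 229 transcripts with at least 2-fold differences the order of the group means was the same. WT libraries were at 0.288, 0.281 and 0.217, bHLH151-OE libraries at 0.505, 0.390 and 0.387. bhlh58/151-KO libraries were at 0.811, 0.743 and 0.635, and bhlh151-KO libraries at 0.723, 0.854 and 0.746. The double knockout and bhlh151-KO overlapped on this set.

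**Figure D4:**
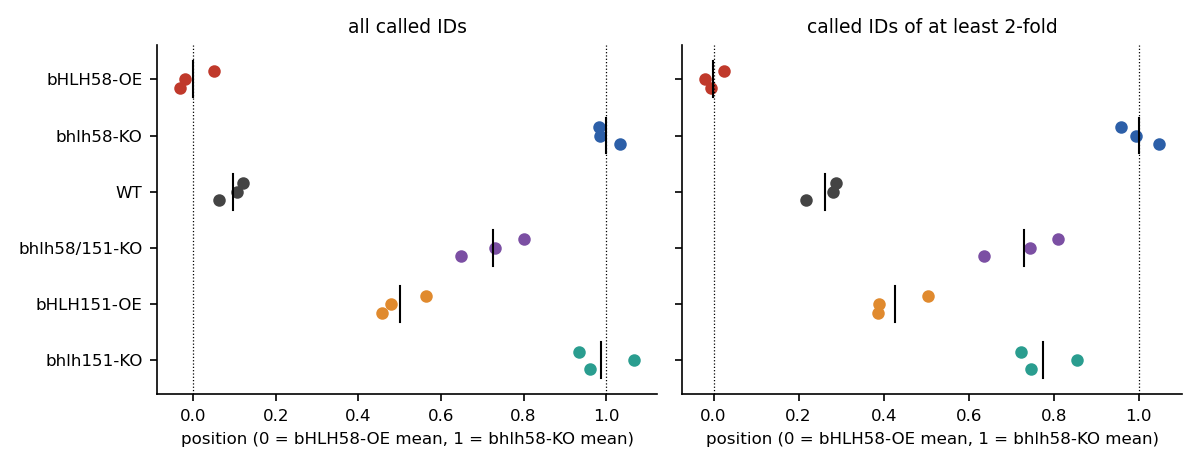
Position of each library between the bHLH58-OE mean (0) and the bhlh58-KO mean (1) on the horizontal axis, over all 3804 called IDs and over the 229 of at least 2-fold, with 1 row per group, points for libraries and bars for means. WT lies nearest to bHLH58-OE in both panels, and bhlh151-KO reaches bhlh58-KO in the panel of all called IDs.

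Beyond these, 4 comparisons of the series share no library with bHLH58-OE against bhlh58-KO, and the called transcripts were followed in them. The fit of all 18 libraries gave each ID the same spread estimate in every comparison. IDs of small spread or high level are thus more readily called in each of them. The share over all tested IDs, here and for the 46 above, is therefore not a like baseline. The 2 directions within a set can still be set side by side. In bHLH151-OE against bhlh151-KO, 11.4% of all tested transcripts were called higher and 9.39% lower. Of the 1789 transcripts higher in bHLH58-OE, 879 (49.1%) were also higher in bHLH151-OE than in its knockout and 127 (7.10%) were lower. Of the 2015 lower in bHLH58-OE, 101 (5.01%) were higher and 919 (45.6%) lower there. The median log2 fold change in the bHLH151 contrast was 0.312 for the higher set, -0.273 for the lower set and 0.0159 over all tested IDs. Over all 40951 IDs the log2 fold changes of the 2 contrasts had a Pearson correlation of 0.341 across transcripts, given as a description since transcripts are not independent replicates.

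In the double knockout against WT, most transcripts of both sets were called in the opposite direction. There 12.6% of all tested transcripts were called higher and 16.3% lower in bhlh58/151-KO. Of the transcripts higher in bHLH58-OE than in bhlh58-KO, 91 (5.09%) were higher and 1150 (64.3%) lower in the double knockout than in WT. Of the lower ones, 1165 (57.8%) were higher and 110 (5.46%) lower. The medians were -0.398 and 0.353, against -0.0635 over all tested IDs, and the correlation across transcripts was -0.418.

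The bHLH151 lines against WT, which share the WT libraries with the double-knockout comparison, ran the same way. In bhlh151-KO against WT, 17.6% of all tested transcripts were higher and 30.8% lower. Of the higher set, 158 (8.83%) were higher and 1333 (74.5%) lower in bhlh151-KO than in WT, and of the lower set 1278 (63.4%) were higher and 192 (9.53%) lower. Median-of-ratios scaling moves the median of all transcripts in this comparison to 0.000673, against -0.113 as deposited. Under that scaling 194 of 1761 transcripts of the higher set were higher and 1193 lower, and 1408 of 1902 of the lower set were higher and 118 lower. In bHLH151-OE against WT, with 11.5% higher and 20.4% lower over all tested IDs, 113 (6.32%) of the higher set were higher and 1035 (57.9%) lower. Of the lower set, 778 (38.6%) were higher and 238 (11.8%) lower. In each of these 3 comparisons with WT, more of the higher set were called lower than higher, and more of the lower set higher than lower.

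**Figure D5:**
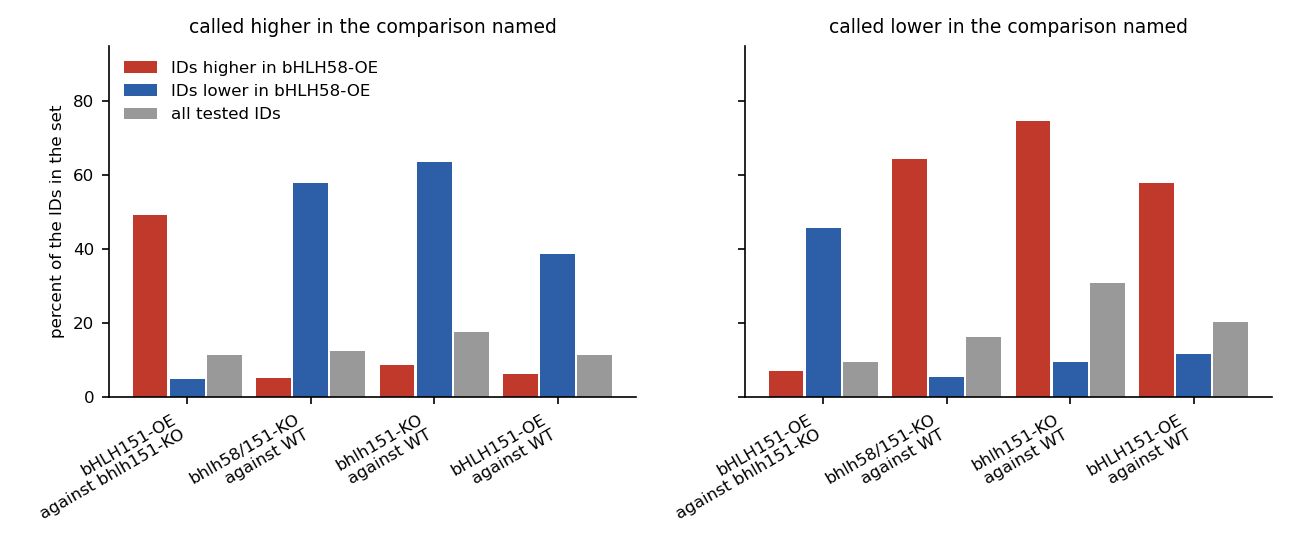
Percent of IDs (vertical axis) called higher (left panel) or lower (right panel) in 4 comparisons that share no library with bHLH58-OE against bhlh58-KO. Red bars are the 1789 IDs higher in bHLH58-OE, blue bars the 2015 lower ones and grey bars all 40951 tested IDs, and red exceeds grey in 1 direction and blue in the other for each comparison.

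Whether the overexpression-knockout difference itself differed between the genes was tested as the bHLH58-OE minus bhlh58-KO difference less the bHLH151-OE minus bhlh151-KO difference. In this test 3310 transcripts were called (8.08%), 1449 (3.54%) with the more positive and 1861 (4.54%) with the more negative difference for bHLH58. Under median-of-ratios scaling the split turned to 1694 more positive and 1591 more negative. Of the 65 transcripts at least 2-fold higher in bHLH58-OE, 32 had a more positive difference for bHLH58 and 0 a more negative one by limma (1 at an unadjusted p under 0.05). Of the 164 at least 2-fold lower, 61 had a more negative difference for bHLH58 and 1 a more positive one. The 2 sets were chosen on the same bHLH58 libraries that enter this test, so these counts are a description.

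PAxG01Gg0066800 was called in opposite directions for the 2 genes, with a small change for bHLH151. It was named for a large difference between the genes, a choice that favours opposite signs. It was at 18.8, 17.0 and 20.2 FPKM in bHLH58-OE, against 4.04, 2.61 and 3.64 FPKM in bhlh58-KO (limma: change of 2.16 on the log2 scale, SE 0.15, adjusted p = 3.27e-08). For bHLH151 it was at 2.77, 2.39 and 3.05 FPKM in the overexpression line and 2.85, 4.58 and 5.03 FPKM in the knockout (-0.44, SE 0.15, limma adjusted p = 0.0455). The ranges of these bHLH151 lines overlapped. The difference of the differences was 2.60 (SE 0.21, limma adjusted p = 2.01e-07). WT lay midway between the bHLH58 lines at 7.81 ± 1.09 FPKM, below bHLH58-OE (limma adjusted p = 0.000105) and above bhlh58-KO (limma adjusted p = 0.000101). The double knockout was at 12.2 ± 1.25 FPKM, above WT (0.59, SE 0.15, limma adjusted p = 0.00662) and not below it as bhlh58-KO was.

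The other IDs with the largest differences between the genes were set by the bHLH151 lines. PAxG09Gg0074700 averaged 11.0 ± 2.63 FPKM in bHLH58-OE and 7.86 ± 3.09 FPKM in its knockout, which were not called apart (limma adjusted p = 0.469), and 1.54 ± 0.619 in bHLH151-OE against 18.5 ± 3.07 in bhlh151-KO (SD, n = 3 each). PAxG05Ag0135100 was level in the bHLH58 lines, at 33.8 ± 0.747 FPKM in bHLH58-OE and 29.7 ± 0.425 FPKM in its knockout (limma adjusted p = 0.255), and near 0 in bhlh151-KO at 0.184 ± 0.213. The double knockout, also labelled as lacking bHLH151, held it at 27.9 ± 1.93 FPKM, so the near-absence was seen in bhlh151-KO line 40 only. PAxG11Ag0028900 averaged 3.67 ± 0.448 FPKM in bHLH58-OE and 3.19 ± 0.56 FPKM in its knockout (limma adjusted p = 0.587). It averaged 76.5 ± 6.24 FPKM in bHLH151-OE and 2.80 ± 0.124 in bhlh151-KO. WT stood at 20.5 ± 2.58 FPKM. Both bHLH58-OE (-2.20, limma adjusted p = 2.82e-08) and bhlh58-KO (-2.36, limma adjusted p = 6.87e-09) were below WT, as was bhlh151-KO (-2.49, limma adjusted p = 9.99e-11). For these 3 transcripts the bHLH58 contrast was not called, and the difference between the genes came with the values of a bHLH151 line.

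The midpoint of both bHLH58 lines differed from WT for 6664 transcripts (16.3%), 3843 higher (9.38%) and 2821 lower (6.89%). A change in 1 line alone also moves the midpoint, so this count is not one of transcripts that differ from WT in both lines. The number lower was 1853 without WT replicate 1 and 1872 without WT replicate 2, and quantile normalization gave 3497 higher and 3502 lower. The IDs described next are those with the largest midpoint differences. PAxG10Gg0119200 was at 7.15, 7.47 and 5.37 FPKM in the overexpression line and 6.28, 7.40 and 7.78 in the knockout, against 0.308, 0.151 and 0.335 in WT (midpoint 2.64, SE 0.13, limma adjusted p = 1.65e-10). NewGene_1392 was at 79.4, 81.8 and 67.6 FPKM in the overexpression line and 98.6, 81.2 and 96.8 in the knockout, against 13.8, 13.0 and 11.5 in WT (2.62, SE 0.086, limma adjusted p = 4.07e-13). Neither was called between the 2 lines (limma adjusted p = 0.76 and 0.0986).

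On the lower side, PAxG19Gg0020500 was at 3.58, 7.11 and 9.90 FPKM in the overexpression line and 11.3, 8.34 and 10.0 in the knockout, against 38.7, 50.3 and 43.8 in WT. Its midpoint lay -2.33 from WT (SE 0.19, limma adjusted p = 1.13e-06) and the lines were not called apart (limma adjusted p = 0.151). PAxG17Gg0168600 was at 16.4, 17.1 and 14.9 FPKM in the overexpression line and 10.9, 14.5 and 13.7 in the knockout, against 74.4, 76.2 and 76.2 in WT (-2.31, SE 0.079, limma adjusted p = 6.21e-13). Here the small difference between the lines was called (0.30, SE 0.091, limma adjusted p = 0.0472). For these 4 transcripts the gap to WT was larger than the gap between overexpression and knockout, which largely follows from how they were chosen. Differences from WT were also present in the other lines. NewGene_1392 was above WT by 2.75 in bhlh58/151-KO, 2.33 in bhlh151-KO and 1.71 in bHLH151-OE on the log2 scale, and PAxG17Gg0168600 lay at -2.70, -3.98 and -2.89 from WT in the same lines, all called by limma. PAxG10Gg0119200 was called above WT in bhlh58/151-KO (0.66) and bhlh151-KO (1.70), and PAxG19Gg0020500 below WT in both (-0.65 and -1.53). In bHLH151-OE these 2 were not called (0.35 and -0.17).

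The called transcripts were spread over the whole set of IDs. IDs with the letter A were called in 9.30% of 19319, IDs with the letter G in 9.33% of 18892 and NewGene IDs in 8.95% of 2726, each near the 9.29% over all. Of the 14 tested IDs of other forms, 0 were called by limma (2 at an unadjusted p under 0.05). By the number in the ID, the share called ran between 7.69% of 1079 IDs (number 11) and 11.1% of 1434 IDs (number 13), the number of the 2 IDs with the largest rises.

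Neighbours in serial order within a number and letter were called together more often than the background share. After a transcript called higher, the next tested ID was also called higher in 7.96% of 1659 pairs, beside 4.35% over all 38173 pairs. After one called lower it was lower in 9.16% of 1900 pairs, beside 4.97% over all. There were 132 pairs higher together, 174 lower together and 141 in opposite directions. The longest runs held 5 neighbours called higher and 4 called lower. Among transcripts of at least 2-fold, 3 neighbouring pairs were higher together, 13 lower together and 0 opposite. Over all tested IDs, 0.159% were at least 2-fold higher and 0.4% lower. The share after a first ID of at least 2-fold was not computed, so these pair counts stand as a description. Where neighbours overlap or are near-identical, reads could be divided between them, and gene positions were not used here.

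Presence and absence contributed little. In 88 IDs all 3 bhlh58-KO libraries were listed at 0 and all 3 bHLH58-OE libraries above 0, and in 88 others the reverse held. Nearly all were scarce, with median group means of 0.138 FPKM in bHLH58-OE for the first kind and 0.131 FPKM in bhlh58-KO for the second. At 1 FPKM or more in every library of the other line there were 2 of the first kind and 3 of the second. WT was listed at 0 in all 3 libraries for 21 of the first kind and 21 of the second. A value listed at 0 in such a table may be an estimate that failed.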

How the data were processed

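RNA was measured in 18 root libraries, 3 per group, of which 6 form the comparison. Per the labels' protocols, RNA extraction used the RNAprep Pure Plant Kit and library construction a NEBNext Ultra kit. The authors deposited 1 table of FPKM values, a unit taken from the table's name, and the submitters' processing notes list DESeq2 without its role or version. Not given in the sources used here are the aligner, the program, the build, the annotation and any filter. FPKM are not counts, so no count test was run. Whole-read steps were sought among IDs under 0.3 FPKM in 15 pairs of libraries, and the fullest bin of 0.02 in log2 ratio held at most 1.35% of the IDs, so depth could not be recovered.

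Values were taken as log2(FPKM + 1), a scale that understates changes of low transcripts, and every fold change is on it. Group means were fitted over all 18 libraries together (limma 3.58.1 in R 4.3.3, eBayes with trend and robust estimation, 12 residual degrees of freedom), which was tested on simulated data. Calls are at an adjusted p under 0.05 (Benjamini-Hochberg, per comparison over all tested IDs). An exact permutation test of 3 against 3 libraries cannot go below 0.1 and was not used. For each of 3 contrasts, at most 2 IDs higher and 2 lower are named, those with the largest change among called IDs of at least 2-fold. They also needed values above 0 in every library compared, a highest group mean of 5 FPKM or more and, except for the difference between the genes, no overlap of the sides. The members, tests and named IDs were chosen with earlier results of these data known. Deviations from the group means had correlations of 0.014, 0.074 and -0.018 between same-numbered libraries of the 2 lines. Other pairs of libraries of the lines were at -0.053 to 0.039. Replicate numbers were not treated as pairs, although the second principal component ordered both lines alike by number. Alternatives were another pseudocount, other filters, scalings and variance models, a fit of only the groups compared, a replicate block and leaving out each library of the groups compared.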

Additional observations from a re-analysis of the deposited data

Results flagged for a closer look

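The overexpression-knockout difference was not the same for bHLH58 and bHLH151 in 3310 transcripts, by the limma test of the difference between the 2 contrasts. Each named transcript that passed this test is listed with the log2 difference of the differences, bHLH58 less bHLH151. Positive values were 3.44 for PAxG09Gg0074700, 2.60 for PAxG01Gg0066800, 2.44 for PAxG13Ag0088600, 1.50 for PAxG13Gg0089100 and 1.26 for PAxG10Gg0119200. Negative values were -4.57 for PAxG05Ag0135100, -4.19 for PAxG11Ag0028900, -2.97 for PAxG01Ag0006200, -1.91 for PAxG19Gg0020500 and -0.79 for PAxG17Gg0168600. PAxG06Gg0057900, at -1.80, and NewGene_1392, at 0.35, did not pass (limma adjusted p = 0.109 and 0.153).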

How the results depend on the processing

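The count of 3804 called transcripts ran from 3153 (IDs with a mean of at least 5 FPKM, where fewer IDs were tested) to 4039 (quantile normalization) under the alternatives that keep every library. Counts of 2-fold differences followed the scale. They were 202 higher and 366 lower with a pseudocount of 0.1, 119 and 254 after rescaling to TPM, and 35 and 84 among IDs with a mean of at least 5 FPKM. Leaving out 1 of the 6 libraries compared gave 2371 to 3216 calls, 1118 to 1469 higher, 1253 to 1747 lower, and 65 to 89 higher and 144 to 177 lower at 2-fold or more. Leaving out 1 of the other 12, an alternative chosen after seeing the data, gave 3617 to 3995 calls, 1693 to 1832 higher and 1904 to 2163 lower. Without 1 library of its own groups, the difference between the genes gave 2719 to 3090 calls and the midpoint against WT 4495 to 6130, the lowest without WT replicate 3. With the replicate block, 3616 transcripts were called between the lines, 3165 for the difference between the genes and 6440 for the midpoint. Over the 12 named results, 214 of 215 alternatives kept the call and 0 changed direction, the exception being PAxG06Gg0057900 in the fit of only the groups compared (-3.22, limma adjusted p = 0.05001, where its alternatives ran from 0.0001116). These IDs were named for large called changes in the same libraries, so that outcome was largely set by the choice. Sizes moved for some, from -6.82 to -4.44 for PAxG05Ag0135100 and from 2.57 to 4.29 for PAxG10Gg0119200. The mean position of WT, 0.096, was 0.184 with a pseudocount of 0.1, 0.045 among IDs of at least 5 FPKM, and 0.083 to 0.151 with a library left out. With depth unknown, no counting error can be given for low FPKM.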
